A study of Mus musculus with 10 samples.

Results

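The comparison was between quiescent and cycling CD4+CD8+ thymocytes, the double-positive stage at which developing T cells stop dividing and rearrange their T cell receptor alpha genes. It used the 4 libraries whose cell type is labelled as a CD4+CD8+ thymocyte, of 10 libraries in the series. There were 2 quiescent libraries and 2 cycling ones, with 1 of each per genotype. The control pair came from mice whose genotype is Dyrk1a flox/flox, Mx1-Cre-, and the CKO-labelled pair from mice given as Dyrk1a -/-, Mx1-Cre+. All mice were of strain C57bl/6 and 4 weeks old. Each library held RNA of 2 pooled mice, and the series' design text describes 1 such pool per genotype for its cell populations, without tying single libraries to it. The other 6 libraries were large and small pre-B cells and mature granulocytes of both genotypes. The 4 pre-B libraries enter the fit below, and the granulocyte libraries were not used. The Mx1 promoter that drives Cre responds to interferon and is active in many tissues, so a deletion by it is not restricted to thymocytes. Thymus and bone marrow suspensions were stained for surface proteins and with dyes that bind nucleic acids, which report on DNA or RNA content. How and when Cre was induced, which proteins were stained and the sorting gates are not given in the sources used here.

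Double-positive thymocytes arise from a burst of division after a functional T cell receptor beta chain has paired with the pre-T alpha chain. They then leave the cell cycle and raise the RAG recombinase again, while they are kept alive for their receptors to be tested. Cell-cycle genes are held down in resting cells by the DREAM complex, in which a pocket protein, an E2F and its partner are joined to the MuvB core. DYRK1A is a kinase known to phosphorylate the LIN52 subunit of that core, a step of DREAM assembly, and D-type cyclins, which marks them for degradation.

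The values were read as FPKM, that is, fragments scaled to transcript length and to the mapped total of the library. They summed to between 388176 and 402668 FPKM per thymocyte library, and between 9842 and 10012 gene symbols reached 1 FPKM. Because each library is scaled to its own total, a change of total RNA per cell is not visible. Total read numbers are not given. Among genes under 0.5 FPKM the most common ratio to control cycling cells, a rough guide to what 1 fragment weighs, was 1.2 in control quiescent, 1.04 in CKO-labelled cycling and 1.29 in CKO-labelled quiescent cells. Only 53, 58 and 151 genes of 2643, 2957 and 2788 lay at that ratio.

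The labelled cell type was checked against its markers. Cd4 stood at 153 FPKM in cycling and 341 FPKM in quiescent control cells, and at 162 and 266 FPKM in the CKO-labelled pair. Cd8a stood at 379 and 675 FPKM in the control pair and at 348 and 519 FPKM in the CKO-labelled pair. Every one of 12 markers of double-positive cells was at or above 2.67 FPKM in all 4 libraries. Several markers that define other lineages were at or near 0. Pax5 of B cells, Csf1r of macrophages, Ncr1 of natural killer cells and Foxn1 of thymic epithelium were each at or below 0.0880 FPKM in every library. Other stroma markers were not, with Epcam at 5.07 to 7.04 FPKM and Ly75 at 3.15 to 4.46 FPKM. The 11 stroma markers summed to 40.3 and 61.1 FPKM in the control pair and to 48.9 and 64.9 FPKM in the other, mostly Pecam1. The 6 erythroid markers found summed to 58.5 and 47.0 FPKM and to 69.3 and 69.0 FPKM, nearly all Tfrc. The part of such cells was not tested. The 10 B cell markers summed to 2.05 to 8.08 FPKM and the 11 macrophage and dendritic cell markers found to 5.63 to 8.06 FPKM. The granulocyte markers summed to 45.0 to 51.6 FPKM, most of it from S100a8 and S100a9, and differed little between states. The natural killer and innate-like T cell markers summed to 55.3 FPKM in cycling and 21.7 FPKM in quiescent control cells, and to 69.7 and 57.4 FPKM in the CKO-labelled pair. Nearly all of that sum was Gzma, a granule protease, and the part of such cells in the results was not tested. The markers of the neighbouring thymocyte stages were not near 0. The 10 CD4-CD8- thymocyte markers summed to 99.1 FPKM in cycling and 36.5 FPKM in quiescent control cells, and to 66.1 and 33.8 FPKM in the CKO-labelled pair. Most of this was the Notch target Hes1. Dtx1, Notch3, Il2ra and Lyl1 lay between 1.07 and 11.8 FPKM, while Kit, Lmo2, Hhex, Bcl11a and Cpa3 were each below 1 FPKM. The 11 markers of mature single positive T cells summed to 159 and 198 FPKM in the control pair and to 128 and 173 FPKM in the CKO-labelled pair, with Cd6, Klf2 and Runx3 together giving most of it. Both sums moved with the state, and the part of such cells in the results was not tested.

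Dyrk1a itself stood at 31.2 FPKM in cycling and 37.4 FPKM in quiescent control cells. In the CKO-labelled pair it stood at 42.3 and 44.7 FPKM. It was therefore not lower in the libraries labelled CKO. A gene-level value also counts reads from outside a deleted part, and the labels do not say which part was deleted, so this is no check of the genotype. The Y-linked gene Ddx3y stood at 0.0291 and 0.0267 FPKM in the cycling and quiescent control libraries and at 8.32 and 16.7 FPKM in the CKO-labelled ones. Eif2s3y, Kdm5d and Uty were likewise at or below 0.0147 FPKM in both control libraries, and all 4 genes were 1.58 to 2.00 times as high in quiescent as in cycling CKO-labelled cells. Xist was between 36.9 and 55.8 FPKM in all 4 libraries. The pools and the libraries of the CKO-labelled pair thus differed in Y-linked transcripts, and the part of this in the results was not tested.

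With 1 library per state and genotype, the 2 pairs were the only replication of the state difference. The test set the mean change of both pairs against a spread that takes in how far the 2 thymocyte pairs disagree and how far the 2 pre-B pairs disagree. It was limma-trend on log2(FPKM + 1) over the 8 lymphoid libraries. Lineage and genotype together formed the block, each lineage had its own state effect, and 2 residual degrees of freedom were left. A gene was called at a Benjamini-Hochberg adjusted p under 0.05, and only then is it said to rise or fall. A gene that changed alike in both thymocyte pairs can therefore miss the threshold. Itgb7, the integrin beta7 chain, changed by 1.44 and 1.39 in the thymocyte pairs and by -2.17 and 0.51 in the pre-B pairs, and was not called (SE 0.59, limma adjusted p = 0.102). Within a single pair no test exists, and a gene was counted as higher or lower at a difference of at least 1 in log2(FPKM + 1), here called 2-fold, provided that its higher library reached 5 FPKM.

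Of 11126 genes tested, 2804 (25.2%) rose and 2193 (19.7%) fell in quiescent cells. Cell-cycle transcripts led the falls, and genes of the T cell receptor complex and Rag1 were among the rises. A called gene is thus common, and the counts of each gene list below are to be read against these shares. The median member of all genes tested changed by 0.06 in both pairs. Fewer cells that transcribe a gene and less RNA per cell cannot be told apart in these bulk libraries. Leaving out a pair leaves 1 thymocyte library per state, with a spread taken wholly from the pre-B pairs and thymocytes assumed to vary like them. In that form 3 genes were called higher and 1 lower without the control pair, where no list below had a called member, and 1633 and 1581 without the CKO-labelled pair.

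Taken singly, the control pair held 738 genes (9.1% of 8113) that were at least 2-fold higher and 881 (10.9%) that were at least 2-fold lower in quiescent cells. The CKO-labelled pair held 272 (3.42% of 7954) and 464 (5.83%). Of the genes higher in the control pair, 31.2% were also higher in the CKO-labelled pair, and these 230 genes made up 84.6% of the CKO-labelled list. Of the genes lower in the control pair, 50.5% were shared, which was 95.9% of the CKO-labelled list. Most genes that were 2-fold apart in the CKO-labelled pair were therefore 2-fold apart in the control pair, but not the reverse. Across the 7806 genes considered in both pairs the log2 ratios had a Pearson correlation of 0.866. It is given as a description, since the libraries of a pair may share their pool. Only 5 genes were at least 2-fold apart in opposite directions, Ankrd10, Gse1, Nolc1, Snora16a and Snora52. Each of these was listed at exactly 0 in a library beside at least 10 FPKM in the other of its pair, which can be a failed estimate. Among the 8 highest ratios of the CKO-labelled pair was Beta-s, an adult globin of red cells, at 1.89 and 0.297 FPKM in the control pair and at 0.702 and 5.86 FPKM in the CKO-labelled pair.

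**Figure D1:**
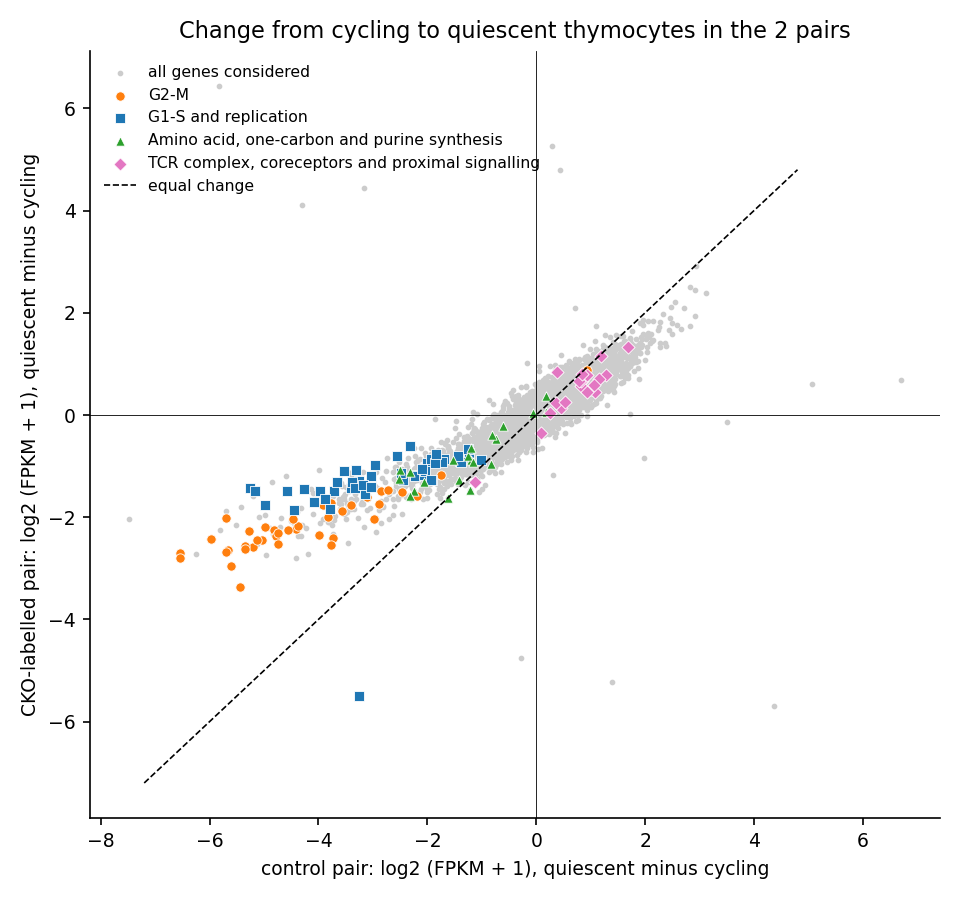
Each point is a gene with at least 5 FPKM in a library of both pairs, placed by its difference in log2(FPKM + 1) between quiescent and cycling cells in the control pair (horizontal axis) and the CKO-labelled pair (vertical axis). Coloured points are 4 gene lists, and the dashed line marks equal change. The G2-M genes lie far above the line, with a median of -4.46 in the control pair and -2.25 in the CKO-labelled pair, while genes of the T cell receptor complex lie near it. The lowest blue square is Gins2, which was listed at 0 in CKO-labelled quiescent cells.

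The populations are labelled as cycling or quiescent, so lower cell-cycle transcripts may follow from how they were sorted, which was not tested. Genes of G2 and mitosis were the lowest in quiescent cells. Of 43 tested, 42 fell, with a median log2 difference of -4.46 in the control pair and -2.25 in the CKO-labelled pair. Quiescent control cells held a median of 2.00% of the cycling level, and CKO-labelled quiescent cells 19.6%. Over all 11126 genes tested, rising ones included, 5656 had a higher log2 ratio in the CKO-labelled pair. Of the 2193 genes that fell, 84.8% changed more in the control pair. Of the 43 G2-M genes all but 1 were less lowered in the CKO-labelled pair. The exception was also the only member that rose, Pttg1, which encodes the anaphase inhibitor securin. It stood at 24.2 FPKM in cycling and 47.1 FPKM in quiescent control cells, and at 26.4 and 49.6 FPKM in the CKO-labelled pair (log2 change 0.91, SE 0.10, limma adjusted p = 0.00647).

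Birc5, which encodes the chromosomal passenger protein survivin, stood at 209 FPKM in cycling and 1.26 FPKM in quiescent control cells, and at 202 and 28.4 FPKM in the CKO-labelled pair. Both quiescent libraries were far below both cycling ones, and the fitted change was -4.66 (SE 0.84, limma adjusted p = 0.011). Ccna2, the cyclin A of S and G2 phase, stood at 165 and 0.780 FPKM in the control pair and at 165 and 24.3 FPKM in the CKO-labelled pair (change -4.63, SE 0.86, limma adjusted p = 0.0118). The cycling libraries were alike and the quiescent ones were not. Ube2c, the E2 enzyme of the anaphase-promoting complex, kept the least in the CKO-labelled pair, 9.32% of its cycling level. It stood at 294 and 5.81 FPKM in the control pair and at 238 and 22.1 FPKM in the CKO-labelled pair (change -4.40, SE 0.50, limma adjusted p = 0.00654). Ccnb1, the mitotic cyclin B1, stood at 75.7 and 0.578 FPKM in the control pair and 62.5 and 7.21 FPKM in the other. Its partner kinase Cdk1 stood at 57.6 and 0.585 FPKM in control and 56.0 and 8.55 FPKM in CKO-labelled cells. In the control pair the quiescent levels of these genes were 0.764% and 1.02% of the cycling ones, and in the CKO-labelled pair 11.5% and 15.3%.

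Top2a, the topoisomerase that untangles replicated chromosomes, stood at 266 and 3.27 FPKM in the control pair and at 282 and 52.0 FPKM in the CKO-labelled pair. It remained the most abundant of the named mitotic transcripts in CKO-labelled quiescent cells. Mki67, the proliferation marker, stood at 139 and 1.70 FPKM in the control pair and 198 and 48.3 FPKM in the other, so that 1.22% and 24.4% were left. Aurkb, the Aurora B kinase, stood at 67.5 and 0.355 FPKM in control and 68.0 and 10.1 FPKM in CKO-labelled cells. Of the 15 called genes with the largest falls, the others were Cdca3, Ccnb2, Cdca8, Pbk, Nusap1, Tpx2 and Fam64a, most of them with roles in the spindle or in mitotic kinase signalling. All 15 had their 2 quiescent libraries below their 2 cycling ones, and fitted changes between -4.66 and -3.85.

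**Figure D2:**
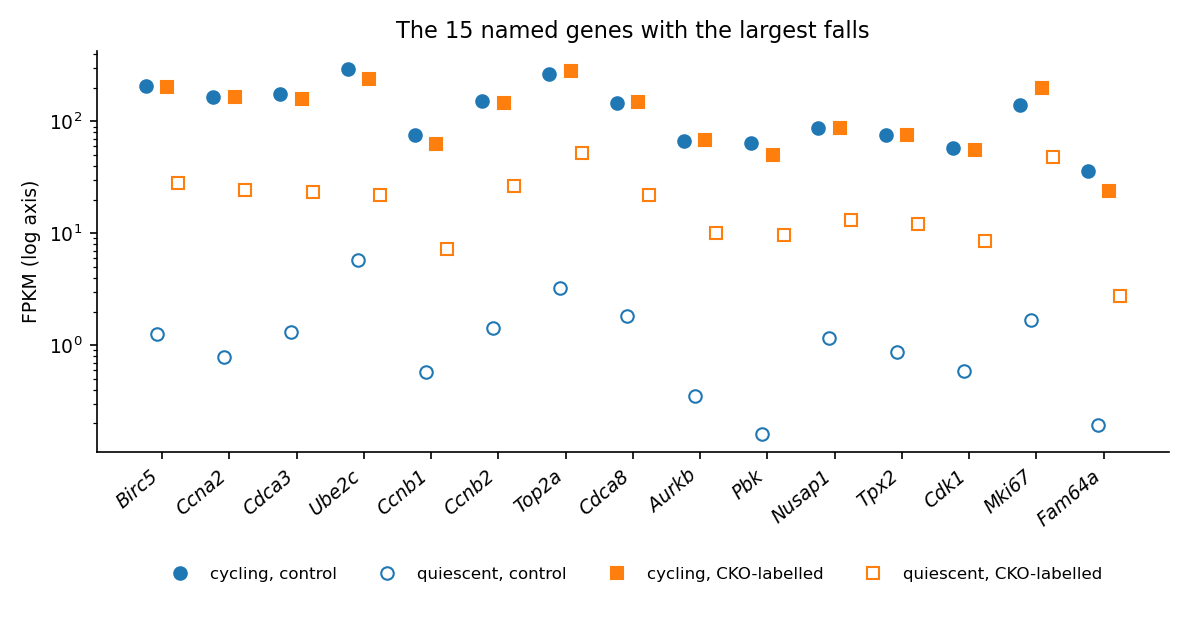
FPKM on a log axis in each of the 4 libraries for the 15 called genes with the largest falls. Filled marks are cycling and open marks quiescent cells, with circles for the control and squares for the CKO-labelled pair. Cycling values of the 2 pairs lie close together, while the open circles lie below the open squares for every gene, such as 1.26 and 28.4 FPKM for Birc5.

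The promoters of such genes are known to carry the CHR element, whose core letters are TTTGAA and which MuvB complexes bind, and CCAAT boxes bound by NF-Y. Promoters of G1-S genes are known for E2F sites, searched here as TTCCCGC or TTGGCGC. Each motif was looked for on both strands in RefSeq windows of 300 bases on GRCm38.p6, from 250 before the start site to 50 from it on, with the first listed window of each gene. The opposite-strand form of CCAAT can share letters with TTGGCGC. A window was found for 36 of the 43 G2-M genes, 38 of the 47 G1-S genes and 7959 of the 11126 genes tested. TTTGAA was present in 72.2% of the G2-M windows, 18.4% of the G1-S windows, 11.8% of the windows of all genes tested and 18.1% of all 27025 windows. TTTGAA and CCAAT together were in 63.9% of the G2-M windows and 5.16% of those of all genes tested. An E2F-type match was in 19 of the 38 G1-S windows, 16.7% of the G2-M windows and 13.0% of those of all genes tested. Among the 49 genes with a window that fell by 3 or more on the log2 scale, 61.2% held TTTGAA, compared with 10.6% of 2036 genes that rose. A match is a description of these letters only, and binding was not measured.

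Of the 15 called genes with the largest falls 10 had a window. Among these 7 held TTTGAA and 8 held CCAAT, while Birc5 and Nusap1 held neither. The windows below all hold a match. In 4 G2-M genes TTTGAA and CCAAT of either strand are in capitals. In 2 genes of the E2F group or its targets the E2F-type match is in capitals. All are printed 5′ to 3′ on the strand of the gene. Plk1, the Polo-like mitotic kinase (41.8 and 2.21 FPKM in the control pair, 36.1 and 6.04 FPKM in the CKO-labelled pair), is shown outside the rule for named genes.
Ube2c (chr2:164769679-164769978, plus strand): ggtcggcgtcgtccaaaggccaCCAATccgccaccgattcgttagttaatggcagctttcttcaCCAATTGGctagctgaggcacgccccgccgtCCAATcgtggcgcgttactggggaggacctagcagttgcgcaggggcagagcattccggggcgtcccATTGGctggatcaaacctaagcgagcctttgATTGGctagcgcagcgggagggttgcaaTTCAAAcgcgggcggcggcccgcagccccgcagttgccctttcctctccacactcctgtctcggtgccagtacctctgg
Ccnb2 (chr9:70421505-70421804, minus strand): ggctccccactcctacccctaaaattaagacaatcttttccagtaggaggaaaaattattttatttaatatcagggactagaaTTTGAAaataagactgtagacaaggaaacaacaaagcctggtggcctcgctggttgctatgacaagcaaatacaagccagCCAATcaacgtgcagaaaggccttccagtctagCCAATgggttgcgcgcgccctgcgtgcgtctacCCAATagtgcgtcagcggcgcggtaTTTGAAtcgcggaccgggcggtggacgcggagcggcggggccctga
Top2a (chr11:99024140-99024439, minus strand): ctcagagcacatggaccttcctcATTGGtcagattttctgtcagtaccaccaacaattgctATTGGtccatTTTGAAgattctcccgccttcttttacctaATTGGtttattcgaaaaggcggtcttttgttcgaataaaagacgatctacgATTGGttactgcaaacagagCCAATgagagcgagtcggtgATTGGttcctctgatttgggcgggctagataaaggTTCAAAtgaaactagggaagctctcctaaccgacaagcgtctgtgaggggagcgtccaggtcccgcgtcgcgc
Plk1 (chr7:122159185-122159484, plus strand): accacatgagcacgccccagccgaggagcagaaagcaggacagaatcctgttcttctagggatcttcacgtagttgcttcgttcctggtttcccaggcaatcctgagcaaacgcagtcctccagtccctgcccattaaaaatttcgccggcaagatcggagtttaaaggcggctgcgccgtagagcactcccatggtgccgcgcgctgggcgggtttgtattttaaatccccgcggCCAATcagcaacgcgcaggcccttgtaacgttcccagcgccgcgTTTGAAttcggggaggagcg
Cdc6 (chr11:98907901-98908200, plus strand): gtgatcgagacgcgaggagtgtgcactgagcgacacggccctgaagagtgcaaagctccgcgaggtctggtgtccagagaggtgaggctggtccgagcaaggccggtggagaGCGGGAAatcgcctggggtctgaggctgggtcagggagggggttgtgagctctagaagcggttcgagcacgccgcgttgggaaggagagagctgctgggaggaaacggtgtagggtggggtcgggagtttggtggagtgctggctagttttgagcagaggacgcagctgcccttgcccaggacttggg
E2f8 (chr7:48881547-48881846, minus strand): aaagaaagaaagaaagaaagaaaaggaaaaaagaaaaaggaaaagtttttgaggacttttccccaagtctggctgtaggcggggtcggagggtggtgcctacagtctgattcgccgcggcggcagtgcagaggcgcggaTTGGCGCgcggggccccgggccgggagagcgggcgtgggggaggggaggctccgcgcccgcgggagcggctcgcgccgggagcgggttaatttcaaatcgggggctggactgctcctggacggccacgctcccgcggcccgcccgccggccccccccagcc
In Ube2c the TTTGAA match lies on the opposite strand, from position -29 relative to the start site, and 6 CCAAT matches lie before it, the nearest from position -57. In Plk1 the TTTGAA match lies after the start site, from position 31, and in Ccnb2 the nearer of 2 matches does, from position 5. The E2f8 window also holds TTTGAA on the opposite strand, left in lower case.

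The G1-S and replication list held 47 tested genes and all of them fell in limma, with a median log2 difference of -2.96 in the control pair and -1.20 in the CKO-labelled pair. Quiescent control cells held a median of 11.6% of the cycling level and CKO-labelled ones 41.5%. In the CKO-labelled pair 32 of the 47 were at least 2-fold lower, while in the control pair 47 were. The only member not less lowered in the CKO-labelled pair was Gins2, a subunit of the replicative helicase, which stood at 40.5 and 3.36 FPKM in the control pair and at 44.1 FPKM and an exact 0 in the CKO-labelled pair. That 0 may be a failed estimate. The count of 47 was 15 when genes with low values were kept in the fit and 31 without the block, whereas the G2-M count of 42 was 32 and 41.

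Pcna, the clamp that holds DNA polymerases on the template, stood at 923 FPKM in cycling and 242 FPKM in quiescent control cells, and at 1120 and 613 FPKM in the CKO-labelled pair. Both quiescent libraries were lower, and the CKO-labelled one kept 54.7% of its cycling level (change -1.40, SE 0.29, limma adjusted p = 0.0158). Rrm2, the regulated subunit of ribonucleotide reductase, stood at 400 and 11.7 FPKM in the control pair and 417 and 123 FPKM in the other. Cdc6, which loads the MCM helicase onto origins and whose window is printed above, stood at 58.3 and 0.548 FPKM in control and 61.7 and 22.2 FPKM in CKO-labelled cells (change -3.35, SE 0.86, limma adjusted p = 0.0272). The share left was 0.939% in the control and 36.0% in the CKO-labelled pair. Mcm7, a subunit of the helicase itself, was less low in the control pair, at 200 and 76.7 FPKM, and stood at 245 and 129 FPKM in the CKO-labelled pair. Its quiescent levels were 38.3% and 52.4% of the cycling ones, so licensing genes differed among themselves in how low they were.

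Genes of DNA repair and the replication checkpoint followed, with 21 of 27 falling and 1 rising. Clspn, the checkpoint mediator claspin, stood at 40.7 and 0.165 FPKM in the control pair and 45.4 and 15.5 FPKM in the other. The mismatch repair gene Msh6 was the member that rose, at 48.8 and 72.0 FPKM in the control pair and 51.9 and 64.8 FPKM in the other. Msh6 was not called after rescaling, without the filter on low values, without the block or without either pair, and the count of 21 falls was 9 without the filter.

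**Figure D3:**
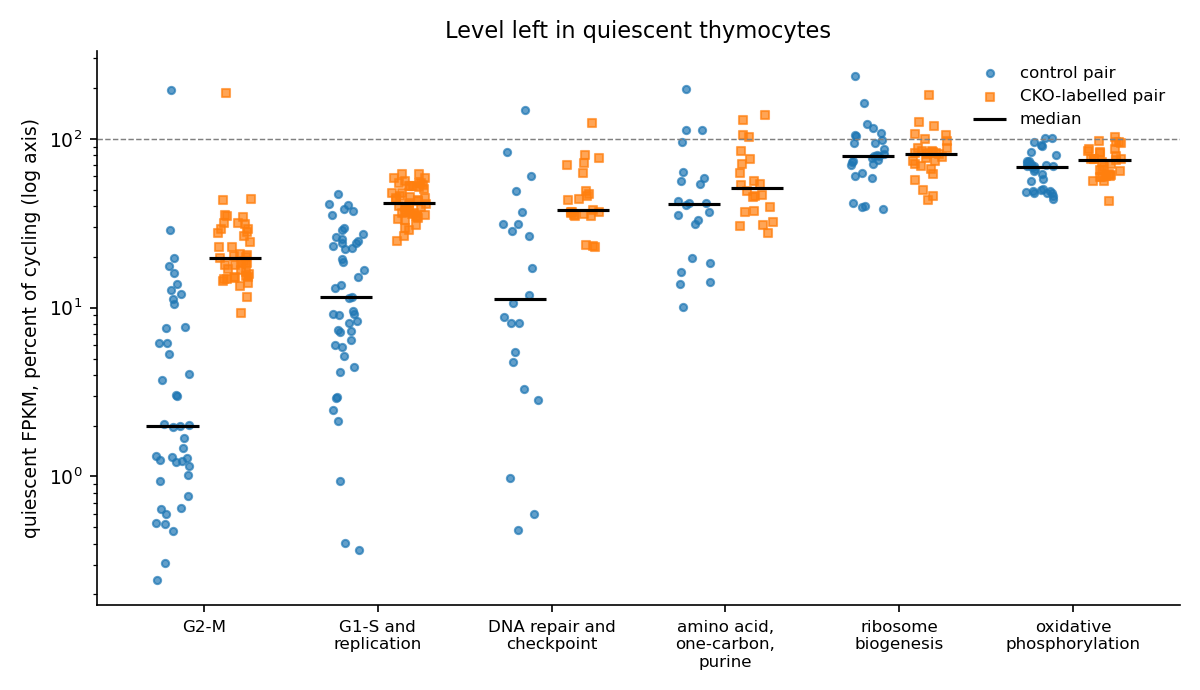
Quiescent FPKM as a percent of cycling FPKM, on a log axis, for members of 6 gene lists that reached 5 FPKM in their pair. Circles are the control pair, squares the CKO-labelled pair and black bars the medians, and the dashed line marks equal levels; a value of exactly 0 (Gins2 and the ribosome biogenesis gene Nolc1, both in the CKO-labelled pair) cannot be drawn on this axis. The medians of the G2-M list lie at 2.00% and 19.6%, whereas those of ribosome biogenesis lie at 79.1% and 81.9%.

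The E2F factors and pocket proteins did not move together. Of 20 tested members of this list, which includes DREAM subunits, 12 fell and 2 rose (6 and 1 without the filter on low values, 8 and 1 without the block). The activator E2f1 stood at 41.7 and 7.13 FPKM in the control pair and at 51.1 and 25.7 FPKM in the CKO-labelled pair (change -1.68, SE 0.39, limma adjusted p = 0.0205). E2f2, the most abundant member, stood at 161 and 42.5 FPKM in control and 185 and 96.1 FPKM in CKO-labelled cells. E2f8, an atypical E2F and itself a cell-cycle gene, stood at 67.9 and 0.325 FPKM in the control pair and 74.7 and 19.7 FPKM in the other. These 3 were lower in both quiescent libraries and less so in the CKO-labelled pair. E2f4, the repressor E2F of DREAM, stood at 62.6 and 90.9 FPKM in control and 57.8 and 63.1 FPKM in CKO-labelled cells and was not called (change 0.33, SE 0.13, limma adjusted p = 0.0856). The 2 members that rose were Rbl2, which encodes the pocket protein p130, and Tfdp2, an E2F partner. Mybl2, the B-MYB factor that joins MuvB in dividing cells, stood at 30.0 and 1.49 FPKM in the control pair and 34.6 and 13.3 FPKM in the other, with 4.96% and 38.3% left.

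Among D cyclins, their kinases and the inhibitors, 6 of 11 tested genes fell and 2 rose (2 and 2 without the filter or without the block, and 5 and 0 without the CKO-labelled pair). Ccnd3 was the D cyclin of these cells, at 312 and 208 FPKM in the control pair and at 245 and 208 FPKM in the CKO-labelled pair. It fell by 0.41 (SE 0.12, limma adjusted p = 0.0375), and the 2 quiescent libraries were nearly equal. Ccnd2 stood at 3.24 and 1.01 FPKM in control and 3.83 and 3.11 FPKM in CKO-labelled cells and was not called (limma adjusted p = 0.13). Ccnd1 was between 0.916 and 1.32 FPKM in all 4 libraries. Cdk4 stood at 114 and 31.0 FPKM in the control pair and at 112 and 61.1 FPKM in the CKO-labelled pair (change -1.36, SE 0.25, limma adjusted p = 0.0115). Cdk6 stood at 6.93 and 3.32 FPKM in the control pair and 5.10 and 3.38 FPKM in the other and fell by 0.68 (SE 0.17, limma adjusted p = 0.0244).

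The CDK inhibitors moved in both directions. Cdkn1b, which encodes p27, rose, from 146 to 221 FPKM in the control pair and from 147 to 236 FPKM in the CKO-labelled pair (change 0.64, SE 0.12, limma adjusted p = 0.0127). Its change was nearly the same in both pairs, 0.60 and 0.68. Cdkn2d, which encodes p19, stood at 91.7 and 118 FPKM in control and 84.6 and 113 FPKM in CKO-labelled cells and rose by 0.38. Cdkn1a, which encodes the p53 target p21, fell instead. It stood at 71.8 and 9.82 FPKM in the control pair and at 116 and 64.1 FPKM in the CKO-labelled pair (change -1.80, SE 0.46, limma adjusted p = 0.0268). The CKO-labelled quiescent level was near that of control cycling cells. Cdkn2c, which encodes p18, stood at 51.4 and 16.0 FPKM in the control pair and 59.8 and 29.4 FPKM in the other and fell by 1.31. The remaining gene that fell, Cdkn2a, stood at 0.788 and 0.172 FPKM in control and 4.28 and 1.34 FPKM in CKO-labelled cells.

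Outside the cell cycle, lists of biosynthetic genes had lower medians in quiescent cells, by less than the G1-S and G2-M lists. Of 22 genes of amino acid, one-carbon and nucleotide synthesis, 17 fell and 1 rose, with medians of -1.20 and -0.90. Cad, which starts pyrimidine synthesis, stood at 13.1 and 1.81 FPKM in the control pair and at 11.8 and 3.28 FPKM in the CKO-labelled pair (change -1.96, SE 0.19, limma adjusted p = 0.00617). Shmt1, of serine and folate metabolism, stood at 11.3 and 1.15 FPKM in the control pair and 11.4 and 4.23 FPKM in the other. Impdh2, of guanine nucleotide synthesis, stood at 114 and 64.6 FPKM in control and 106 and 81.0 FPKM in CKO-labelled cells. The member that rose was Slc1a5, a glutamine transporter, at 68.9 and 137 FPKM in the control pair and 78.1 and 108 FPKM in the other.

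Of 31 oxidative phosphorylation genes, 22 fell and none rose, with medians of -0.55 and -0.42. Sdhc, a subunit of succinate dehydrogenase, changed to the same extent in both pairs, at 55.3 and 24.5 FPKM in control and 46.3 and 19.9 FPKM in CKO-labelled cells (change -1.16, SE 0.09, limma adjusted p = 0.00617). Of 36 ribosomal protein genes 12 fell and none rose (2 fell without the filter). Their median was -0.35 in the control pair and -0.12 in the CKO-labelled pair, and all 36 were less lowered, or more raised, in the latter. Rpl3 stood at 634 and 268 FPKM in the control pair and 491 and 264 FPKM in the other, so the quiescent libraries were alike and the cycling ones were not. Such genes have many processed copies in the genome, and no source used here says how reads were divided among them. Ribosome biogenesis genes were split, with 13 of 32 falling and 2 rising. Nop58, a core protein of box C/D particles that guide RNA methylation, stood at 69.1 and 27.2 FPKM in control and 69.7 and 34.5 FPKM in CKO-labelled cells, while its partner Nop56 rose from 108 to 175 FPKM and from 101 to 128 FPKM.

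Of 18 genes of glucose uptake and glycolysis 7 fell and 2 rose, with medians near 0. Gapdh stood at 1206 and 649 FPKM in the control pair and at 1000 and 673 FPKM in the CKO-labelled pair (change -0.73, SE 0.14, limma adjusted p = 0.0126). Tpi1 and Pgk1, which act next to it in the pathway, fell by 1.20 and 0.99. Pfkp, an isoform of phosphofructokinase, and Hk1, a hexokinase, were the 2 that rose. Of 24 genes of cholesterol and fatty acid synthesis 8 fell and none rose (2 fell without the filter, 3 without the block and 13 without the CKO-labelled pair). Their median was -0.73 in the control pair and -0.23 in the CKO-labelled pair, where none of 21 considered was 2-fold lower against 9 of 23 in the control pair. Sqle, squalene epoxidase, stood at 32.0 and 10.9 FPKM in the control pair and 23.5 and 16.9 FPKM in the other (change -0.97, SE 0.29, limma adjusted p = 0.0434).

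Chromatin genes changed in both directions, 9 of 17 falling and 5 rising. The Polycomb methyltransferase Ezh2 stood at 156 and 26.6 FPKM in the control pair and at 159 and 56.8 FPKM in the CKO-labelled pair (change -1.99, SE 0.25, limma adjusted p = 0.00688). Its paralogue Ezh1 was among the 5 that rose, with Jarid2, Tet1, Tet2 and Tet3. H2afz, the histone variant H2A.Z, stood at 1296 and 332 FPKM in control and 1345 and 670 FPKM in CKO-labelled cells. Of 19 replication-dependent histone genes 10 fell and 1 rose. Their messages lack a poly(A) tail, and most were low in all 4 libraries, with only 4 at 5 FPKM or more in either pair.

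**Figure D4:**
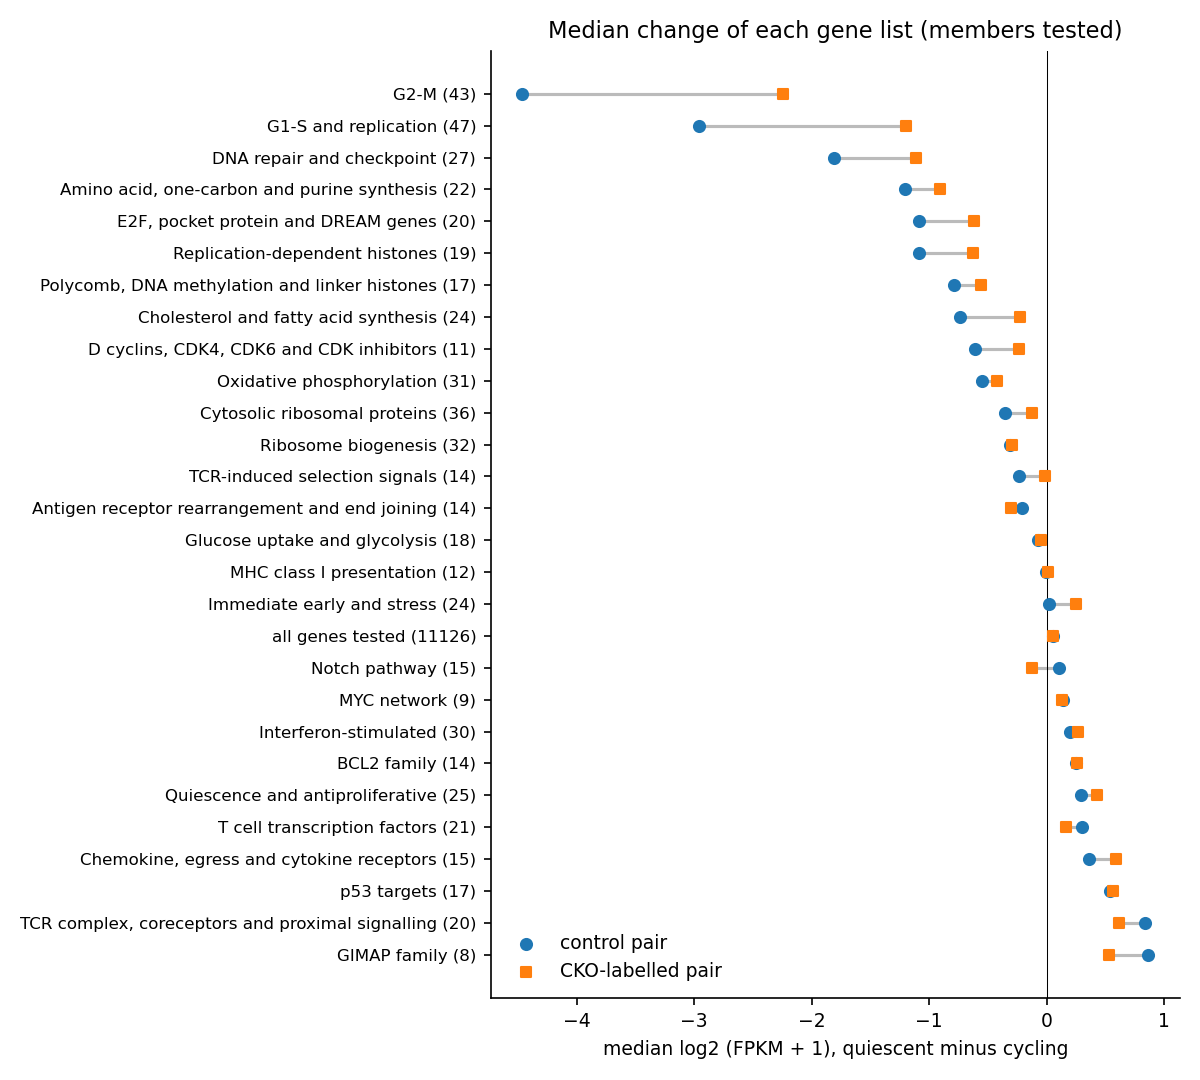
Median difference in log2(FPKM + 1) between quiescent and cycling cells for each gene list, with the number of members tested in brackets. Circles are the control pair and squares the CKO-labelled pair. The 3 lists at the top, G2-M, G1-S and DNA repair, show the longest lines between the pairs. The T cell receptor and GIMAP lists at the bottom lie above 0 in both pairs.

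Whether the genes with the largest rises share a pathway was not tested. Slfn2 and Ypel3 among them belong to the quiescence list below, and Ccr9 to the list of chemokine receptors. Fam65a, which encodes a protein that interacts with the GTPase RhoA, stood at 50.1 FPKM in cycling and 391 FPKM in quiescent control cells, and at 48.5 and 372 FPKM in the CKO-labelled pair. It rose by 2.93 (SE 0.11, limma adjusted p = 0.0053), to the same extent in both pairs. Tcp11l2 stood at 17.3 and 138 FPKM in the control pair and 16.9 and 96.2 FPKM in the other. Ccr9, the receptor for the thymic chemokine CCL25, stood at 65.0 and 365 FPKM in the control pair and at 60.1 and 265 FPKM in the CKO-labelled pair (change 2.30, SE 0.63, limma adjusted p = 0.0324). Slfn2, known as a gene that maintains T cell quiescence, stood at 33.7 and 190 FPKM in control and 28.8 and 110 FPKM in CKO-labelled cells (change 2.18, SE 0.23, limma adjusted p = 0.0064). Txk, a TEC family kinase of T cells, stood at 10.6 and 55.3 FPKM in the control pair and 5.11 and 20.5 FPKM in the other. In all 15 genes with the largest rises both quiescent libraries were above both cycling ones. The other members were Slc6a19, Tle2, Gramd3, Spo11, Als2cl, Gabbr1, Ypel3, Sepp1, Insl5 and BB031773.

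**Figure D5:**
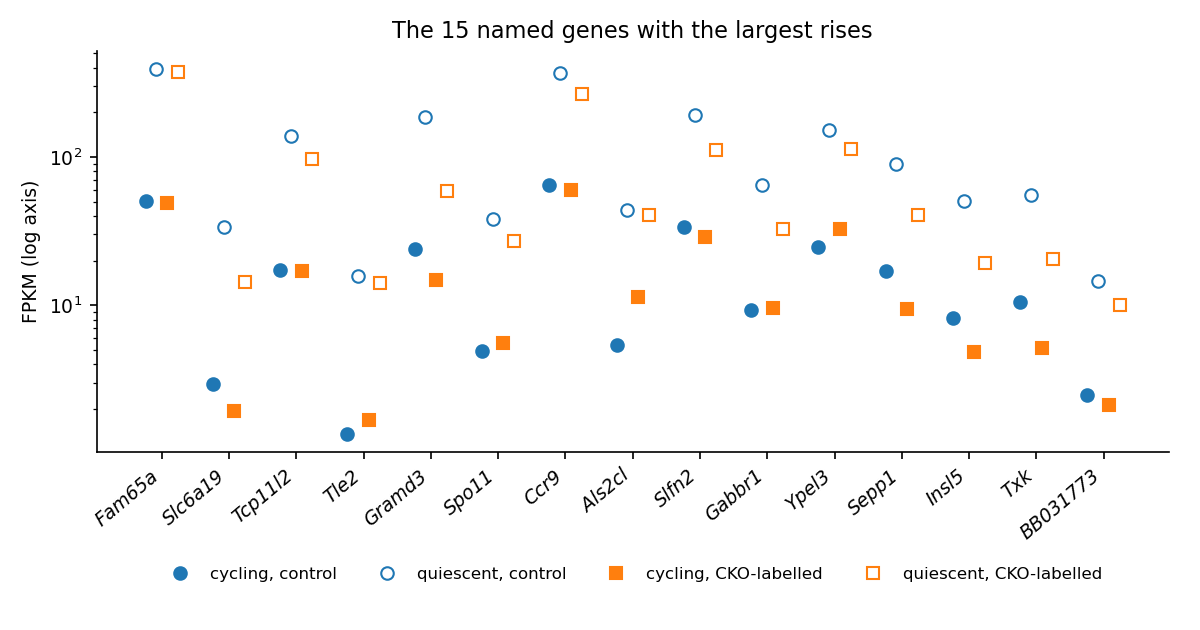
FPKM on a log axis in each of the 4 libraries for the 15 called genes with the largest rises. Filled marks are cycling and open marks quiescent cells, with circles for the control and squares for the CKO-labelled pair. Open marks lie above filled marks for every gene, and for Fam65a the quiescent values of the 2 pairs are 391 and 372 FPKM.

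Of 25 genes known for quiescence or for holding back growth, 10 rose and none fell (6 rose without the block or without the CKO-labelled pair). Ypel3 stood at 24.6 and 152 FPKM in the control pair and at 32.8 and 114 FPKM in the CKO-labelled pair. Pik3ip1, an inhibitor of PI3 kinase, stood at 25.0 and 107 FPKM in control and 30.0 and 93.2 FPKM in CKO-labelled cells (change 1.83, SE 0.14, limma adjusted p = 0.00617). Btg1, an antiproliferative factor, stood at 102 and 162 FPKM in the control pair and 118 and 197 FPKM in the other. The FOXO target Klf2 did not follow them, at 27.4 and 21.1 FPKM in control and 24.4 and 31.4 FPKM in CKO-labelled cells. Its groups overlapped and the pairs differed in sign. In the MYC network Mxd4, which opposes MYC, stood at 74.4 and 193 FPKM in the control pair and 119 and 344 FPKM in the other and rose by 1.44. Mxd3, a family member tied to S phase, stood at 43.3 and 0.697 FPKM in control and 33.8 and 6.57 FPKM in CKO-labelled cells and fell by 3.45. Myc itself stood at 9.32 and 4.19 FPKM in the control pair and 11.4 and 7.26 FPKM in the other and was not called (limma adjusted p = 0.0762).

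Genes of the T cell receptor, its coreceptors and its proximal signalling were higher in quiescent cells, with 10 of 20 rising and 1 falling. Their medians were 0.84 in the control pair and 0.62 in the CKO-labelled pair. Cd5, a brake on receptor signals, rose alike in both pairs, from 45.8 to 106 FPKM and from 45.3 to 102 FPKM. Cd8a rose by 0.70 (SE 0.12, limma adjusted p = 0.0105). Cd4 was not called (change 0.93, SE 0.49, limma adjusted p = 0.176), although both quiescent libraries were above both cycling ones. Its pre-B pairs changed by -0.92 and 1.28. With the 4 thymocyte libraries alone 14 of the list rose, with a pseudocount of 5 there were 15 and with 0.1 there were 6. The gene that fell was Ptcra, the pre-T alpha chain of the preceding stage. It stood at 15.3 and 6.47 FPKM in the control pair and at 8.13 and 2.67 FPKM in the CKO-labelled pair (change -1.22, SE 0.13, limma adjusted p = 0.0062).

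Rag1, a subunit of the recombinase, stood at 248 and 645 FPKM in the control pair and at 321 and 599 FPKM in the CKO-labelled pair (change 1.13, SE 0.23, limma adjusted p = 0.0137). Rag2, its partner, stood at 11.0 and 15.7 FPKM in control and 13.6 and 12.4 FPKM in CKO-labelled cells, where the groups overlap, and was not called (limma adjusted p = 0.447). The end-joining genes Lig4 and Dclre1c also rose. Lig4, the ligase, stood at 17.5 and 48.1 FPKM in the control pair and 16.0 and 41.4 FPKM in the other, and Dclre1c, the nuclease Artemis that opens hairpin ends, at 14.2 and 56.9 FPKM in control and 19.1 and 50.8 FPKM in CKO-labelled cells. Xrcc5, Xrcc6 and Nhej1 of the same list fell, as did Hmgb1 and Hmgb2, abundant chromatin proteins known as RAG cofactors. Hmgb2 stood at 890 and 59.7 FPKM in the control pair and at 934 and 275 FPKM in the CKO-labelled pair (change -2.82, SE 0.49, limma adjusted p = 0.0104).

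Of 21 T cell transcription factors 7 rose and 1 fell. Myb stood at 248 and 572 FPKM in the control pair and 269 and 478 FPKM in the other, and Ets1 at 340 and 684 FPKM in control and 361 and 641 FPKM in CKO-labelled cells. The one that fell was Tcf3, which encodes E2A proteins, at 68.4 and 56.0 FPKM in the control pair and 62.7 and 50.2 FPKM in the other. Tcf3 was not called with a pseudocount of 5, without the filter, without the block or with thymocytes alone. Tcf7, the TCF-1 factor, was at or above 1044 FPKM in all 4 libraries and was not called (change 0.16, limma adjusted p = 0.514). In the Notch list of 15 genes 4 rose and 3 fell, again near the shares of all genes tested. Hes1, the classic Notch target of early thymocytes, stood at 78.5 and 20.9 FPKM in the control pair and at 44.0 and 19.2 FPKM in the CKO-labelled pair (change -1.51, SE 0.22, limma adjusted p = 0.00773), while Notch1 showed no called change.

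Genes that prevent and genes that promote cell death both rose. Of 14 BCL2 family genes 5 rose and 1 fell. Mcl1, an inhibitor of apoptosis, stood at 168 and 328 FPKM in the control pair and at 219 and 447 FPKM in the CKO-labelled pair (change 0.99, SE 0.10, limma adjusted p = 0.0062). Bcl2l11, which encodes the killer BIM, stood at 184 and 286 FPKM in control and 233 and 395 FPKM in CKO-labelled cells. Bbc3, which encodes PUMA, stood at 23.8 and 63.5 FPKM in the control pair and 97.2 and 197 FPKM in the other and rose by 1.20 (SE 0.13, limma adjusted p = 0.00647). Its cycling CKO-labelled level was above its quiescent control level, so the groups overlap across genotypes although both pairs moved upward. Bcl2l1, which encodes BCL-XL, stood at 51.1 and 75.5 FPKM in control and 43.4 and 52.8 FPKM in CKO-labelled cells and was not called (limma adjusted p = 0.0817). Of 17 p53 targets 8 rose, among them Trp53inp1, by 1.26 in both pairs, and only Cdkn1a fell, a call lost without the filter or without the block.

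Of 8 GIMAP genes, a family of small GTPases of lymphocytes, 5 rose and none fell. Gimap6 stood at 42.7 and 163 FPKM in the control pair and at 43.1 and 116 FPKM in the CKO-labelled pair. Of 30 interferon-stimulated genes 8 rose and none fell, a share close to that of all genes tested, with Igtp at 46.9 and 195 FPKM in the control pair and 52.9 and 135 FPKM in the other. Of 12 genes of MHC class I presentation 3 rose and 4 fell. H2-D1, a class I heavy chain, rose by 0.61 (SE 0.12, limma adjusted p = 0.0135), whereas Psmb9, an immunoproteasome subunit, stood at 49.3 and 9.88 FPKM in control and 56.4 and 18.4 FPKM in CKO-labelled cells and fell by 1.89 (SE 0.19, limma adjusted p = 0.0062). Of 15 chemokine, egress and cytokine receptors 7 rose and 1 fell. Plxnd1, a guidance receptor, stood at 62.9 and 238 FPKM in the control pair and 63.6 and 149 FPKM in the other.

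Of 24 immediate early and stress genes, which can respond to tissue handling, 6 rose and 4 fell, shares near those of all genes tested. Nfkbia, the NF-κB inhibitor, stood at 24.4 and 95.2 FPKM in the control pair and at 45.2 and 116 FPKM in the CKO-labelled pair. Fosb stood at 43.1 and 10.6 FPKM in control and 69.9 and 44.4 FPKM in CKO-labelled cells (change -1.29, SE 0.35, limma adjusted p = 0.0318). The heat shock genes Hspa1a and Hspa1b, nearly identical copies whose reads may not be separable, also fell. Nr4a1, an immediate target of receptor signals, stood at 705 and 309 FPKM in the control pair and at 1036 and 975 FPKM in the CKO-labelled pair and was not called (limma adjusted p = 0.102). Its quiescent level was 43.8% of the cycling level in the control pair and 94.1% in the CKO-labelled pair.

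The size of the state difference was then set side by side in the pairs. Among genes that rose, the medians were 0.76 in the control pair and 0.58 in the CKO-labelled pair, and 78.6% changed more in the control pair. Among genes that fell, the medians were -0.91 and -0.65, and 84.8% changed more in the control pair. Of 849 genes that were at least 2-fold lower in the control pair, 834 were less lowered in the CKO-labelled pair and 271 of them by at least 1 on the log2 scale. Of 686 that were at least 2-fold higher, 663 were less raised and only 7 by that much. Both groups of genes were picked on the control pair's own values, which favours larger values there, so these shares are descriptions.

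By the rule of size, 298 of 8261 genes (3.61%) had a log2 ratio at least 1 higher in the CKO-labelled pair and 24 (0.291%) one at least 1 lower. Genes listed at exactly 0 in a library beside at least 10 FPKM in its partner took the extremes, such as Ankrd10 (12.27) and Nolc1 (-10.06), and are left out of the ranks that follow, as are the kinds of gene skipped by the rule for named genes. The 12 highest of the rest were Ccna2, E2f8, Cdc6, Birc5, Mki67, Clspn, Esco2, Ncapg2, Top2a, Ccnb2, Pbk and Cdca3, all cell-cycle genes, with differences from 3.54 to 3.83. Esco2, which acetylates cohesin in S phase, stood at 48.4 and 0.145 FPKM in the control pair and at 47.7 and 13.0 FPKM in the CKO-labelled pair. In these 12 genes the cycling libraries of the pairs differed by at most 1.42-fold, and the CKO-labelled quiescent library was 15.9 to 93.7 times as high as the control one. The lowest of the rest was Lars2, the mitochondrial leucyl-tRNA synthetase, at 25.8 and 304 FPKM in the control pair and at 142 and 128 FPKM in the CKO-labelled pair. Next were low-level genes such as Smoc1, at 0.543 and 8.70 FPKM in the control pair and 0.149 and 0.601 FPKM in the other.

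A test of the difference between pairs had to borrow its spread from the pre-B pairs, with 1 residual degree of freedom. In limma 0 genes (0.0%) were called higher and 2 (0.018%) lower in the CKO-labelled pair. Both called genes, Gse1 and Snora65, held a value of exactly 0. A fit with 1 residual degree of freedom can call few genes, so the lack of calls does not show that the pairs changed alike. With at least 5 FPKM in 2 libraries required, 153 were called higher and 6 lower.

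Pre-B cells offered a comparison of the same kind, small against large cells. In the same fit the state effect differed between lineages for 403 genes (3.62%) that were higher and 358 (3.22%) that were lower in thymocytes relative to pre-B cells. Of the 47 G1-S genes none was called different. Of the 43 G2-M genes only Pttg1 was, which changed by -0.05 and -0.07 in the pre-B pairs. The G2-M medians in pre-B cells were -2.57 in control and -1.67 in CKO-labelled cells, compared with -4.46 and -2.25 in thymocytes. The median difference between lineages was -1.04 for the G2-M and -0.90 for the G1-S list, and 0.01 over all genes tested, so the lack of calls does not show that the lineages changed alike. These counts depend on the libraries used. Without the control or without the CKO-labelled pre-B libraries 0 genes were called either way, and without the control thymocytes 11 and 2.

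Genes called different between the lineages were found in other lists. In ribosome biogenesis 8 of 32 genes were called, all with a higher change in thymocytes than in pre-B cells. The list's medians were -0.32 and -0.29 in thymocytes and -0.85 and -0.87 in pre-B cells. Npm1, nucleophosmin, changed by -0.67 and -0.31 in the thymocyte pairs and by -1.48 and -1.46 in the pre-B pairs (difference 0.98, SE 0.17, limma adjusted p = 0.0406). In glycolysis 5 of 18 were called in that direction, with Ldha, lactate dehydrogenase A, at a difference of 1.46 (SE 0.14, limma adjusted p = 0.0169). Of the 24 immediate early and stress genes 10 were lower and 2 higher in thymocytes relative to pre-B cells. Of the quiescence list Klf2, Btg1, Btg2 and Ddit4 were lower. Btg1 rose in thymocytes by 0.66 and 0.74 in the pairs and was higher by 2.40 and 2.09 in small pre-B cells. Of the T cell receptor list 6 were higher and 2 lower. Marker levels were not checked in the pre-B libraries, which also enter the spread of the fits. Of the 6 erythroid markers tested 5 were called higher, with medians of -2.16 in control and -1.15 in CKO-labelled pre-B cells. The 7 macrophage and dendritic cell markers tested had medians of -1.47 and 1.02 there. The part of non-B cells in the pre-B values was not tested. Pools, animals and handling of thymus and bone marrow cannot be told apart from lineage here.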

How the data were processed

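RNA was extracted from sorted cells and sequenced, with 1 library per population and genotype. Per the submitters' processing notes TopHat2 2.0.8b and Cuffdiff 2.1.1 were used on mm10, and nothing is said of their settings. The deposited values were read as FPKM, as the authors made them. No label names the unit, which was inferred from the tools and the numbers. The annotation and the strand setting are not given in the sources used here, so overlapping and antisense genes may not be separable.

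Each file held 23179 rows. Of these 201 repeated another row exactly, 47 symbols stood on more than 1 differing row, of which that with the highest mean was kept, and 22923 symbols remained. Differences were taken on log2(FPKM + 1), which understates changes of low genes. Genes that reached 1 FPKM in at least 2 of the 8 lymphoid libraries were fitted with limma 3.58.1 (R 4.3.3, trend, Benjamini-Hochberg adjustment over all genes). Its spread pools the disagreement of the thymocyte pairs with that of the pre-B pairs. The difference between lineages was a contrast of that fit, and the difference between pairs a further term. The limma fits were tested on simulated data, in which 200 of 11126 genes were given a log2 change of 1 or 2. The changed genes were drawn from the more abundant ones only, and were far fewer than the genes called in the data. The fit of quiescent against cycling thymocytes recovered 61% and 98% of these genes, and called 4 and 10 unchanged ones. There both pairs were given the same change, so these shares do not describe low genes or genes whose pairs disagree. For the difference between lineages the shares were 0% and 92%, and for the difference between pairs 0% at either size. The p-values of the state and lineage fits rest on how far control and CKO-labelled pairs disagree, so a genotype difference of the change counts as spread. No p-value here measures the spread between animals.

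The 27 pathway and 9 marker lists (705 entries, 688 found) and the members named were chosen with earlier results of these data known. Named were the 15 largest rises and falls called and at least 2-fold in both pairs, the 8 highest and lowest ratios of each pair, the 12 highest and lowest differences between pairs, the 8 most different called genes each way between lineages, and per list the 4 most abundant and 3 most changed members. A set of cell-cycle and thymocyte genes was always included, and predicted, segment, sex-linked and small RNA genes were skipped, as were genes listed at exactly 0 beside 10 FPKM or more. Not all of these are printed, results of some genes are not reported here, and members that complete a count were named after their values were seen. Summaries were made with pandas 2.3.3 in Python 3.11.15. The alternatives were other pseudocounts (0.1 and 5), filters, rescaling by median ratios, fits without the block or of thymocytes alone, and leaving out each pair.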

Additional observations from a re-analysis of the deposited data

Results flagged for a closer look

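The change from cycling to quiescent cells differed between thymocytes and pre-B cells, by a test of that difference in limma, for 403 genes that were higher and 358 that were lower in thymocytes. Most of the named ones are hardly expressed in thymocytes, so that the values reflect the small against the large pre-B libraries. Whether those libraries held other cells was not tested. Higher were Igj (difference 6.04), the granule genes Mpo (5.27), Prtn3 (4.90), Ctsg (4.86) and Elane (4.76), and Ms4a3 (3.34). Lower were Ms4a1 (-3.60), Faim3 (-3.51), Col5a3 (-3.35), Pde4c (-3.16), Tmem163 (-2.99), Spib (-2.97) and Cd40 (-2.97). Exceptions that thymocytes express were F13a1 (3.51), at 14.3 and 46.4 FPKM in the control pair and 6.02 and 10.6 FPKM in the CKO-labelled pair, and Fam83d (3.24), at 114 and 187 FPKM in the control pair and 104 and 201 FPKM in the other.

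The change was called different between the 2 thymocyte pairs for Gse1 (-6.62) and Snora65 (-6.02). The limma test had 1 residual degree of freedom and took its spread from the pre-B pairs. Each gene was listed at exactly 0 beside at least 10 FPKM in the other library of a pair, which can be a failed estimate. Gse1 stood at 30.8 and 82.7 FPKM in the control pair and at 36.4 FPKM and exactly 0 in the CKO-labelled pair. Snora65 stood at exactly 0 and 103 FPKM in control and 33.1 and 53.6 FPKM in CKO-labelled cells.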

How the results depend on the processing

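No paired analysis by replicate number was possible because each group held 1 library; the block of the fit was lineage and genotype. The calls in thymocytes numbered 2804 higher and 2193 lower. Without the control pair they were 3 and 1, with 1 of the original calls shared, and without the CKO-labelled pair 1633 and 1581. Under the other 8 settings they lay between 1953 and 2836 and between 1524 and 2434. Without the control pair Rag2 (-0.12) and Klf2 (0.35) changed sign, neither of which was called, and 40 of 50 single genes lost their call. Without a filter 14 did, among them Birc5, Ccna2 and Mki67, and without the block 6. Ccr9 also lost its call with a pseudocount of 0.1, after rescaling and without the CKO-labelled pair, and Cd4 was called with a pseudocount of 5 and with thymocytes alone. Of 54 counts of list members that rose or fell, 47 moved by over 1.5 times without the control pair, 21 without a filter, 21 without the block and 19 without the CKO-labelled pair. With thymocytes alone 4 did, with a minimum of 5 FPKM 3, and with genes at exactly 0 left out 0.

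For the difference between pairs, 0 higher and 2 lower, the counts were 153 and 6 with at least 5 FPKM in 2 libraries and 2 and 2 with a pseudocount of 0.1. With a pseudocount of 5, no filter, rescaling, or genes at exactly 0 left out they were 0 and 0. For thymocytes against pre-B cells, 403 and 358, they were 188 and 173 with a pseudocount of 0.1, 0 and 0 without a filter, 214 and 288 after rescaling, 11 and 2 without the control thymocytes, 128 and 231 without the CKO-labelled thymocytes, and 0 and 0 without the control or the CKO-labelled pre-B libraries. In single pairs, a pseudocount of 5 gave 388 higher genes in the control pair and 144 higher and 275 lower in the CKO-labelled pair. A minimum of 20 FPKM gave 485 and 547 in the control pair and 168 and 301 in the CKO-labelled pair. The cause of these changes was not tested, except that a stricter minimum leaves fewer genes. Depth is not given, and values of low genes rest on few fragments.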

Other observations

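Of 14 genes of T cell receptor signals at selection 2 rose, Cd69 and Dusp2, and Egr2 fell. Cd69, an early activation marker, stood at 8.98 FPKM in cycling and 14.3 FPKM in quiescent control cells, and at 15.9 and 31.0 FPKM in the CKO-labelled pair (change 0.77, SE 0.20, limma adjusted p = 0.0273). Dusp2, a nuclear MAP kinase phosphatase, stood at 36.7 and 77.8 FPKM in the control pair and 59.1 and 92.5 FPKM in the other (change 0.85, SE 0.21, limma adjusted p = 0.025). Nr4a3, a nuclear receptor of the same response, stood at 109 and 81.8 FPKM in control and 106 and 90.9 FPKM in CKO-labelled cells and was not called (limma adjusted p = 0.0756).

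Pecam1, an adhesion molecule kept as a marker of endothelium, rose in quiescent cells, at 31.1 and 52.4 FPKM in the control pair and at 39.0 and 52.98 FPKM in the CKO-labelled pair (change 0.59, SE 0.12, limma adjusted p = 0.0158). Cdh5, the other endothelial marker, was listed at 0 in all 4 libraries. Psmb11, a proteasome subunit of thymic cortical epithelium, was at or below 0.0897 FPKM. Epcam and Ly75 of the same list were higher, at 5.07 to 7.04 FPKM and 3.15 to 4.46 FPKM.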
